A study of Mus musculus with 4 samples.

Results

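The 2 control populations of the series are set side by side here: regulatory T (Treg) cells of visceral adipose tissue (VAT) from mice with intact Srebf2 (WT), and VAT Treg cells from mice kept on a normal chow diet (NCD). RNA of single cells was sequenced from its 5′ end after capture in droplets, and each molecule was counted once through its unique molecular identifier (UMI). A cell was taken when it had 500 or more genes, under 10% of its UMIs from mitochondrially encoded genes, and no UMI of Cd79a, Lyz2 or Cd8a. In addition, its own hashtag had to make up at least 90% of its pool's hashtag counts, with 10 or more counts. This gave 3490 WT and 4938 NCD cells, together 8428 of the 20492 barcodes of the series.

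WT cells came from male Foxp3YFP-cre Srebf2WT/WT mice aged 25 weeks at steady state, pooled from 4 mice. NCD cells came from male Foxp3thy1.1 PpargTdt mice aged 23 to 27 weeks, pooled from 5 mice on normal chow for 22 weeks. WT cells thus carried a Cre recombinase expressed from Foxp3 with no floxed Srebf2 allele, while NCD cells carried a Thy1.1 reporter of Foxp3 and a TdTomato reporter of Pparg. Both were sorted as live CD3+ CD4+ Foxp3+ cells. Before capture, WT cells were mixed 1:1 with cells of Foxp3YFP-cre Srebf2flox/flox mice (KO, 4 mice, Hashtag 2), and NCD cells in another experiment with those of 5 mice fed a high-fat diet (HFD, Hashtag 4). The KO mice were aged 25 weeks. The HFD mice were aged 23 to 27 weeks and had 22 weeks of diet. Each condition is 1 pool of mice, so there is no replicate check and no test. Strain, experiment, capture, hashtag and software version all differ between WT and NCD and cannot be told apart, and intervals cover counting error only.

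VAT Treg cells are resident T cells that restrain inflammation in fat and are marked by the transcription factor Foxp3. Many carry ST2, the receptor for interleukin-33 encoded by Il1rl1, and depend on the lipid-sensing nuclear receptor PPARγ. These ST2-carrying cells are known for Klrg1, Gata3, Ccr2 and the tissue repair factor Areg, and are depleted in obese mice. SREBP2, the product of Srebf2, switches on the genes of cholesterol synthesis when membrane sterol is low.

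The membership of each cell rests on a 15-base hashtag oligonucleotide, and the 4 oligonucleotides, copied from the deposited hashtag sheet, are shown because they decide which cells are WT and which are NCD.
Hashtag 1, WT: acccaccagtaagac
Hashtag 2, KO: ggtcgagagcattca
Hashtag 3, NCD: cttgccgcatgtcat
Hashtag 4, HFD: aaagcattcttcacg
Hashtag 1 and Hashtag 3 each differ from every other of these oligonucleotides at 11 and 12 positions or more, respectively. WT cells carried a median of 1950 counts of Hashtag 1 and 41 of Hashtag 2. NCD cells carried a median of 405 counts of Hashtag 3 and 5 of Hashtag 4. The own-hashtag share was a median of 97.89% in WT and 98.91% in NCD cells. Between 90% and 95% lay 291 WT and 286 NCD cells, and just outside the limit, between 85% and 90%, lay 72 and 76 otherwise eligible cells.

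Depth was close in both populations. WT cells held 14010241 UMIs with a median of 3589.5 UMIs and 1621 genes per cell, and NCD cells held 22200627 UMIs with a median of 3989 UMIs and 1686 genes. Ribosomal protein genes took 18.65% of the UMIs in WT and 21.45% in NCD, and mitochondrially encoded genes 1.488% and 1.367%. The filter on Cd79a, Lyz2 and Cd8a removed 186 of 3676 WT and 579 of 5517 NCD cells. Of these, 112 WT and 349 NCD cells held a Cd79a UMI. The 2 matrices shared 135 barcodes, and 18 of these belonged to a WT cell in one and an NCD cell in the other.

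The sorted identity was visible in both. Without thinning, a UMI of the T cell receptor chain gene Cd3e was found in 92.3% of WT and 94.1% of NCD cells, and a Foxp3 UMI in 55.4% and 53.8%. The summed level of 7 T cell markers was 3079 counts per 1000000 UMIs (CPM) in WT and 2996 in NCD, and that of 5 Treg markers 3221 and 2805 CPM. Markers of dendritic cells summed to 4.93 and 6.35 CPM and those of γδ T cells to 2.50 and 2.21 CPM, while 4 of 5 neutrophil markers were at 0 in WT and all 5 in NCD. Marker lists of 16 cell types were measured, and those of other lineages with a member called higher or lower are given at the end.

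WT and NCD cells had nearly the same profile gene by gene. Counts were summed over the cells of each condition and scaled to CPM, and a gene was called higher or lower in WT at a ratio of 1.5-fold or more, a rule of size. Of 6374 genes at 20 CPM or more in at least one condition, 5458 (85.6%) lay within 1.25-fold. Across these genes the levels, as log2(CPM + 1), gave Pearson's r 0.97 and Spearman's rho 0.965, as a description, since genes are not replicates. Among the 100 most abundant genes of each condition, 93 were shared. In WT 176 genes (2.76%) were higher and 84 (1.32%) were lower, together 4.08%, and 63 and 40 were past 2-fold. The median log2 ratio of WT over NCD was 0.06. For scale, WT and the KO cells of its own capture differed at 1.61% of the genes tested, and NCD and HFD cells of one capture at 17.7%, comparisons that reuse the same control cells.

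**Figure D1:**
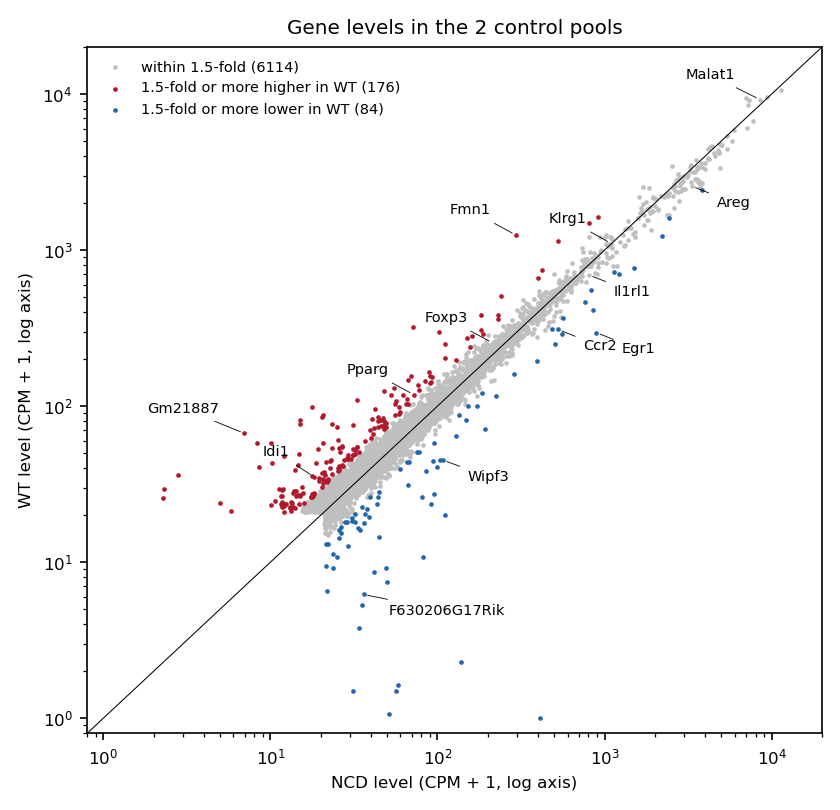
Level of each of 6374 genes in NCD cells (x axis, CPM + 1, log axis) against WT cells (y axis, CPM + 1, log axis), each point 1 gene in 1 pool per condition. The 176 genes higher in WT (red) and 84 lower in WT (blue) lie off the diagonal line of equal levels, along which the other 6114 genes (grey) run.

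The most abundant transcripts were common to both controls. Tmsb4x, which encodes an actin-binding thymosin, stood at 10630 CPM in WT and 11410 CPM in NCD. Actb, cytoskeletal actin, stood at 9494 and 9428 CPM (log2 ratio 0.01). The nuclear noncoding RNA Malat1 stood at 9210 and 8505 CPM. Junb, a subunit of the AP-1 transcription factor, stood at 9150 and 7277 CPM (log2 ratio 0.33). Vim and S100a6, cytoskeletal and calcium-binding genes of effector T cells, were at 4213 against 4511 CPM and at 4392 against 4803 CPM. All of these lay within 1.5-fold on the scale of UMI counts, which is not divided by gene length.

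Of 20 Treg identity genes, all measured at 5 CPM or more, 2 were higher in WT and none lower. Over all 9778 genes at 5 CPM, 4.58% were higher and 1.92% lower, with a median log2 ratio of 0.07. The list's median was 0.22. Foxp3 (chromosome X, 7579676 to 7595243, GRCm38.p6) stood at 253.5 CPM in WT and 212.7 in NCD, a log2 ratio of 0.25 (95% counting interval 0.19 to 0.32). Il2ra, the high-affinity chain of the interleukin-2 receptor, stood at 641.7 and 655.7 CPM (log2 ratio -0.03). Ikzf2, the transcription factor Helios, stood at 825.8 and 765.2 CPM. The core of the Treg program was therefore within 1.5-fold on this scale. The inhibitory receptor gene Ctla4, at 977.1 and 744.2 CPM, had a log2 ratio of 0.39.

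The 2 identity genes past 1.5-fold were Itgae and Cd6. Itgae, which encodes the integrin CD103, stood at 13 CPM in WT and 3.69 CPM in NCD, with a log2 ratio of 1.81 (1.43 to 2.21). In the other condition of each capture it stood at 11.2 CPM in KO and 23.3 CPM in HFD. An Itgae UMI was found in 3.52% of WT and 1.09% of NCD cells, so most cells of either control gave none. Cd6, a costimulatory surface receptor, stood at 238.6 and 155.2 CPM (log2 ratio 0.62).

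The ST2 adipose Treg signature was present at high levels in both controls. Of its 26 genes, all measured, 3 were higher and 2 lower in WT, with a median log2 ratio of -0.10. Over all genes at 5 CPM, 4.58% were higher and 1.92% lower. The summed level of the 26 genes was 7992 CPM in WT and 9263 CPM in NCD. The summed level was 7144 CPM in KO and 2257 CPM in HFD. Klrg1 (chromosome 6, 122270596 to 122282833), an inhibitory lectin-like receptor of terminally differentiated cells, was at the same level, 1099 CPM in WT and 1096 in NCD (log2 ratio 0.00, -0.03 to 0.03). Il1rl1 (chromosome 1, 40404864 to 40465418) stood at 691.3 CPM in WT and 802.6 in NCD (log2 ratio -0.22, -0.25 to -0.18). Areg (chromosome 5, 91139599 to 91148432), a ligand of the EGF receptor, stood at 2569 and 3318 CPM (log2 ratio -0.37). These 3 markers lay within 1.5-fold.

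Other genes of the signature passed 1.5-fold in either direction. Pparg (chromosome 6, 115360879 to 115490404) was higher in WT, at 117.4 CPM against 71.2, a log2 ratio of 0.72 (0.62 to 0.82). It stood at 100.8 CPM in KO and 8.85 in HFD, and it is the gene that carries the TdTomato reporter in NCD mice. The part of the reporter allele in this difference was not tested. Rora, a nuclear receptor of type 2 lymphocytes, stood at 542.5 and 405.7 CPM (log2 ratio 0.42), and Gata3, their lineage transcription factor, at 474.0 and 591.1 CPM (log2 ratio -0.32). The 2 lower genes were Ccr2, a receptor for monocyte chemoattractants, at 308.7 and 526.8 CPM (log2 ratio -0.77, -0.82 to -0.72), and Wipf3, which encodes a protein that binds WASP, at 44.1 and 106.6 CPM (log2 ratio -1.27). Plin2, a coat protein of lipid droplets, stood at 374.2 and 498.7 CPM (log2 ratio -0.41).

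Cd36, a fatty acid uptake receptor, was the gene of the signature with the highest ratio, but 66.5% of its WT UMIs came from 2 cells. Dgat2, an enzyme of triglyceride synthesis and the remaining higher gene, stood at only 7.57 and 4.73 CPM and is named after its value was seen.

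To compare cells at equal depth, every cell was thinned to 2000 UMIs, which left out 307 WT and 286 NCD cells and kept 3183 and 4652. An Il1rl1 UMI was then found in 59.6% of WT cells (95% exact binomial interval 57.9 to 61.3) and in 67.3% of NCD cells (65.9 to 68.6). Without thinning the shares were 71.0% and 78.1%. B cells of the same captures, which should lack the gene, gave 2.67% in the Srebf2 pool and 2.16% in the diet pool at the same thinned depth, with medians of 4254 and 3799 UMIs before thinning. Most cells of both controls thus gave an ST2 transcript, and the 2 intervals did not overlap.

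Shares of cells with a UMI did not always follow the summed levels. Klrg1 was found in 73.2% of thinned WT and 77.1% of thinned NCD cells. Areg was found in 62.2% and 59.9%, although its summed level was 2569 CPM in WT and 3318 CPM in NCD. Pparg, seen in 17.3% of WT and 11.2% of NCD cells, was found in 0 of the B cells of either pool. Ccr2 differed more, with 40.3% of WT and 58.4% of NCD cells. A Foxp3 UMI was found in 38.2% and 33.3% of thinned cells. The B cells were chosen without a Foxp3 or Cd3e UMI, so they give no background for Foxp3.

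Some combinations of genes were found in like shares of the 2 populations. For others the intervals, which count cells and not mice, did not overlap. Both Il1rl1 and Klrg1 were found in 50.2% of WT (48.4 to 51.9) and 58.4% of NCD cells (57.0 to 59.9). Cells with a UMI of at least one of Il1rl1, Klrg1, Areg and Pparg made up 88.9% and 89.9%, with overlapping intervals. Genes of type 1 effector cells (Cxcr3, Tbx21, Ccl5 or Nkg7) without Il1rl1 were found in 16.2% of WT (14.98 to 17.6) and 13.7% of NCD cells (12.8 to 14.8). Cycling transcripts (Mki67 or Top2a) were found in 3.17% and 3.87%, and antiviral interferon-stimulated ones (Isg15, Ifit1 or Ifit3) in 6.25% and 4.94%. A cell without an Il1rl1 UMI is not shown to lack ST2, since 1 gene is often missed at this depth.

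**Figure D2:**
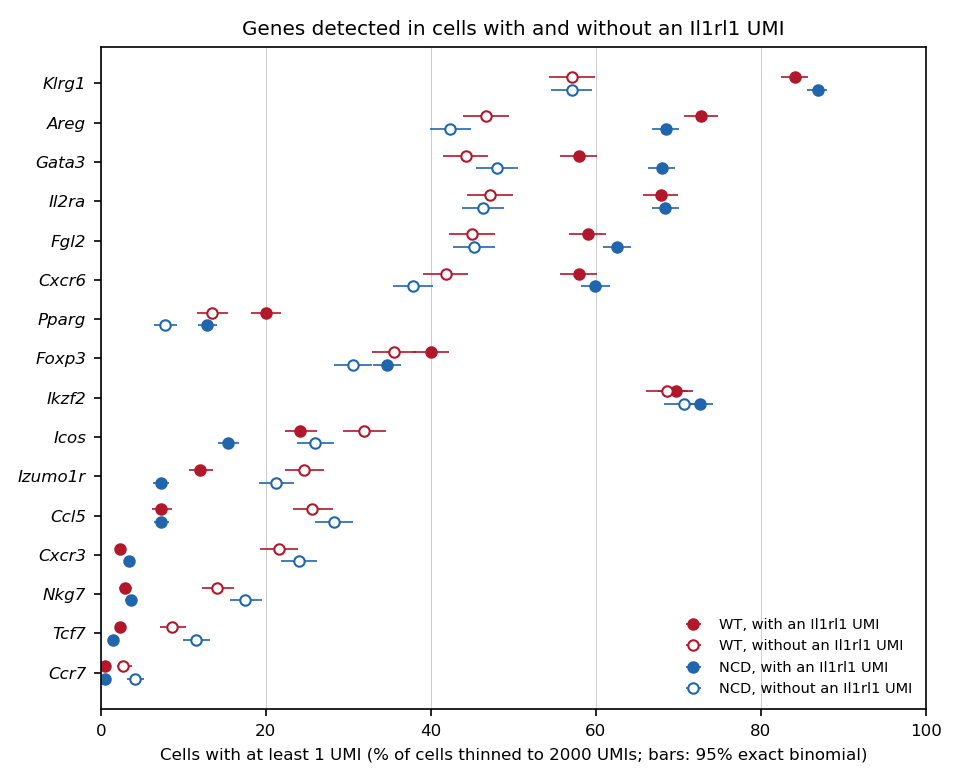
Share of cells with at least 1 UMI of each of 16 genes (x axis, percent of cells thinned to 2000 UMIs), in WT (red) and NCD (blue) cells with (filled) and without (open) an Il1rl1 UMI; bars are 95% exact binomial intervals. Klrg1 was found in 84.1% of WT and 86.9% of NCD cells with an Il1rl1 UMI and in 57.1% of either without one, and Ccl5 in 7.32% and 7.29% against 25.6% and 28.2%.

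Each control was then split by the presence of an Il1rl1 UMI among thinned cells, so that the same contrast could be read in 2 sets of cells that share no library. The split put 1898 WT cells against 1285, and 3129 NCD cells against 1523. The groups come from a measured transcript, and the contrast is a description with Il1rl1 left out. In WT 262 genes (4.01%) were higher and 223 (3.42%) lower in the cells with Il1rl1. In NCD 177 (2.77%) were higher and 280 (4.38%) lower. Of the 6165 genes tested in both, 95 (1.54%) were higher and 119 (1.93%) lower in both. The 95 genes were 36.3% of the WT and 53.7% of the NCD higher genes, and the 119 were 53.4% of the WT and 42.5% of the NCD lower genes. A single gene had opposite calls, the haemoglobin gene Hbb-bs, of which 98.6% of the WT UMIs lay in 2 cells. Across genes the 2 sets of log2 ratios gave Pearson's r 0.62.

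Genes higher alongside Il1rl1 in both controls included secreted peptides and their processing. Calca, which encodes the neuropeptide CGRP, stood at 48.5 CPM with and 12.8 CPM without an Il1rl1 UMI in WT, and at 52.3 and 16.1 CPM in NCD. Its log2 ratios were 1.90 (1.38 to 2.50) in WT and 1.69 (1.26 to 2.16) in NCD. Pcsk1, a prohormone convertase, had log2 ratios of 1.18 in WT and 1.42 in NCD. Calca and Pcsk1 also stand in the list of 5 markers used here for type 2 innate lymphoid cells. That list summed to 77.94 CPM in all WT and 96.48 CPM in all NCD cells. The part of such cells in this contrast was not tested. The repair and inhibitory genes Areg and Klrg1 had ratios of 0.87 and 0.74 in WT and of 0.85 and 0.83 in NCD. Pparg had 0.71 and 0.75.

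Signalling and cytoskeletal genes were also among the 12 with the highest ratios in both. Frmd5, a FERM domain protein, stood at 840.1 CPM with and 280.9 CPM without Il1rl1 in WT and at 679.3 and 301.7 CPM in NCD, log2 ratios of 1.58 and 1.17. Irs2, an adaptor of the insulin and interleukin-4 receptors, had ratios of 1.23 and 1.25, and Atf3, a stress-induced AP-1 partner, 1.02 in each. Mapkbp1 had 1.47 and 1.64, Raph1 1.39 and 1.02, Sorcs1 1.34 and 1.20, and Kcna4, a voltage-gated potassium channel, 1.15 and 1.01. The ratios of Ypel2, Ablim3 and Magi1 lay between 0.98 and 1.26 in both controls.

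The 8 genes with the lowest ratios in both controls included chemokine, chemokine receptor and cytotoxic cell genes. The chemokine gene Ccl4 stood at 1.32 CPM with and 67.7 CPM without Il1rl1 in WT and at 3.20 and 78.1 CPM in NCD. Over all WT and all NCD cells, 51.4% and 55.8% of its UMIs came from 2 cells. Ccl5, a chemokine of effector and memory T cells, had log2 ratios of -3.02 in WT and -3.12 in NCD. The chemokine receptor gene Cxcr3 had -3.24 and -3.01, and its regulator Tbx21, the transcription factor T-bet, -2.72 and -2.59. Ccr7, the receptor that guides T cells to lymph nodes, had -2.85 and -3.12. Ctsw, Nkg7 and Ly6c2, all genes of cytotoxic or memory cells, ranged from -3.79 to -2.63 over both controls.

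The gene lists were chosen with earlier results of these data known, so their values are a description and not separate support. The median log2 ratio of 25 measured signature genes was 0.59 in WT and 0.63 in NCD, with 13 and 15 higher and 1 lower in each. Over all genes at 5 CPM the medians were -0.03 and -0.08, with 5.67% higher and 6.35% lower in WT and 4.41% and 7.22% in NCD. The median of the 12 type 1 genes was -1.70 and -2.31, with 7 and 9 lower, and that of the 12 resting and homing genes -1.07 and -1.04, with 8 lower in each. Of 6 measured type 2 and myeloid-directed cytokine genes, 4 were higher in each, with medians of 1.37 and 0.96. Of the 21 early response genes, 4 were higher in WT and 10 in NCD.

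**Figure D3:**
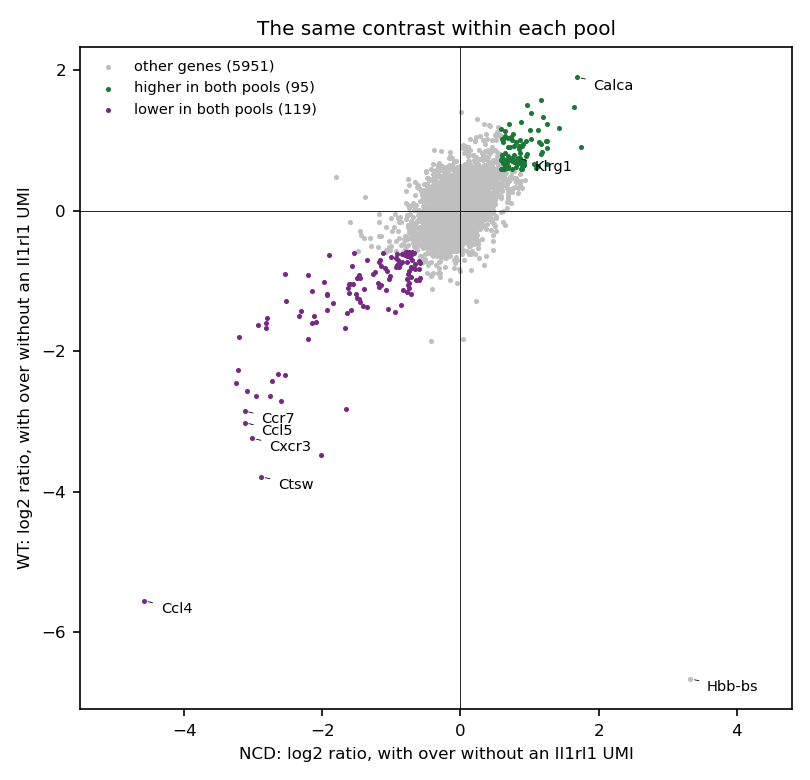
log2 ratio of cells with over cells without an Il1rl1 UMI in NCD (x axis) and in WT (y axis) for 6165 genes at 20 CPM or more, each point 1 gene. The 95 genes higher in both (green) lie at upper right with Calca farthest out in WT, the 119 lower in both (purple) at lower left, and Hbb-bs, concentrated in 2 WT cells, alone at lower right.

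Of the 31 gene lists, cholesterol synthesis had the highest median ratio of WT over NCD. Of its 19 measured genes 7 were higher in WT and none lower, and their median log2 ratio was 0.33. Over all genes at 5 CPM, 4.58% were higher and 1.92% lower, with a median of 0.07. Idi1 (chromosome 13, 8885606 to 8892396), the isomerase of the isoprene unit, stood at 34.3 CPM in WT and 17.2 in NCD (log2 ratio 0.99, 0.79 to 1.19). Fdps, farnesyl diphosphate synthase, stood at 49.6 and 25.3 CPM (log2 ratio 0.97, 0.81 to 1.14). Mvd, the decarboxylase of the mevalonate pathway, stood at 12.3 and 7.30 CPM (log2 ratio 0.76, 0.44 to 1.08), and Msmo1, a sterol methyl oxidase, at 20 and 12.4 CPM (log2 ratio 0.68). Sqle (0.64) and Cyp51 (0.60) were also among the higher genes and are named after their values were seen. Ebp and Sc5d, later enzymes of the pathway and its most abundant members beside Fdps, had ratios of -0.03 and 0.12.

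The levels of these enzymes were low and differed with the condition of the partner cells. Summed over the list, WT stood at 527.0 CPM, NCD at 415.5, KO at 330.3 and HFD at 332.0. An Idi1 UMI was found in 5.69% of thinned WT and 3.33% of thinned NCD cells, beside 1.33% and 1.62% of B cells. Srebf2 itself stood at 65.7 and 67.6 CPM (log2 ratio -0.04, -0.16 to 0.08). Insig1, which holds SREBP2 in the endoplasmic reticulum, stood at 34.0 and 22.8 CPM (log2 ratio 0.57), just under 1.5-fold. Of 18 genes of SREBP control and sterol transport 2 were higher and none lower, and one of the higher genes, Apoe, was concentrated in few cells. With a hashtag share of 99% or more, which leaves 244 WT cells, 4 of the 19 enzymes were higher and the ratio of Fdps was -0.0911.

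The promoters of the cholesterol synthesis list were read for 2 short motifs on both strands. RefSeq promoters (GRCm38.p6, 250 bases before to 50 after the start) were matched for 15 of the 20 listed genes, and 3 of the farthest members are printed, with CCAAT or its reverse complement ATTGG in capitals.
Idi1, chr13:8885356-8885655, plus strand: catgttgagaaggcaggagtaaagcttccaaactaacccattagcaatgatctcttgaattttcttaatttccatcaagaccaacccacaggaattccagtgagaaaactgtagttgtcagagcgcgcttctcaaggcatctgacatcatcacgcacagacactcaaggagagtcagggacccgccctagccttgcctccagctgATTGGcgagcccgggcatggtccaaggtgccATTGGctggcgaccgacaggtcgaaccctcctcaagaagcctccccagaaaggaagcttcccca
Mvd, chr8:122443373-122443672, minus strand: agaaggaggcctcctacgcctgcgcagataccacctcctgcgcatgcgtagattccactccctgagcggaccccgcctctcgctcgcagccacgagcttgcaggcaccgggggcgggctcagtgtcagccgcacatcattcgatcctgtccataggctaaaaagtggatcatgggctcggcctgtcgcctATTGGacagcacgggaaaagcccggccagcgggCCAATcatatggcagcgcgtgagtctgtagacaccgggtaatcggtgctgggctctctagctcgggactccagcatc
Msmo1, chr8:64733529-64733828, minus strand: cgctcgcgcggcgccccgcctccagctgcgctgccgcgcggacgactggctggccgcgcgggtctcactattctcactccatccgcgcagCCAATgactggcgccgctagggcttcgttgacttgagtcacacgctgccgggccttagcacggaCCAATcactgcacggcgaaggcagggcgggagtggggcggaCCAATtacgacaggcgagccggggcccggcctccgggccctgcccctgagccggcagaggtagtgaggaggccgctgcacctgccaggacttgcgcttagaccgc
Idi1 and Mvd hold 2 matches each and Msmo1 holds 3. CCAAT, the box bound by NF-Y, was in 13 of the 15 promoters and in 37.9% of all 27025 promoters of that length. The higher genes Fdps and Sqle were not among the 15. Ebp and Sc5d, which were not higher in WT, held 2 matches and 1 match. The count therefore describes the list and not its higher members. The sterol regulatory element, searched as TCACNCCAC, was in 1 of the 15 and in 1.22% of all. A match is a run of letters and not a shown binding site.

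Costimulatory and inhibitory receptor lists held several genes past 1.5-fold. Of 13 measured genes of the TNF receptor family and costimulation 4 were higher in WT and none lower, with a median of 0.29. Over all genes at 5 CPM the shares were 4.58% and 1.92%. Tnfrsf9, the activation marker 4-1BB, stood at 144.8 CPM in WT and 83.7 in NCD (log2 ratio 0.79, 0.70 to 0.88). Tnfsf11, the ligand RANKL, stood at 79.4 and 42.8 CPM (log2 ratio 0.89). Tnfsf8, the ligand of CD30, stood at 35.3 and 20.3 CPM (log2 ratio 0.80), and Icos, a costimulatory receptor of effector Treg cells, at 197.0 and 127.9 CPM (log2 ratio 0.62). Among thinned cells without an Il1rl1 UMI, Icos was found in 31.9% of WT and 26.0% of NCD cells, and among those with one in 24.2% and 15.5%.

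Among 13 inhibitory receptor and ectoenzyme genes, Pdcd1 and Btla were higher in WT and none was lower (all genes: 4.58% and 1.92%). Pdcd1, the checkpoint receptor PD-1, stood at 306.2 and 182.2 CPM (log2 ratio 0.75, 0.69 to 0.81), and Btla at 13.2 and 7.52 CPM (log2 ratio 0.81). In the partner cells Pdcd1 stood at 343.2 CPM in KO and 293.0 CPM in HFD, and Tnfrsf9 at 167.0 and 207.4 CPM. Bhlhe40, a transcription factor of activated T cells, was the single effector factor of 15 past 1.5-fold, at 106.9 and 55.4 CPM (log2 ratio 0.95). Its level was 188.1 CPM in KO and 221.5 CPM in HFD.

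T cell receptor signalling genes gave 3 higher and none lower of 18 in WT (all genes: 4.58% and 1.92%). Dusp2, a phosphatase of MAP kinases induced by activation, stood at 154.4 and 88.9 CPM (log2 ratio 0.80), and Themis, an adaptor of the antigen receptor, at 53.9 and 31.8 CPM (log2 ratio 0.76). Cd6 is the third. Dusp2 stood at 192.8 CPM in KO and 170.4 CPM in HFD.

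Early response genes stood at high levels in both controls, but 2 of 21 were lower in WT and none higher. Over all genes at 5 CPM, 1.92% were lower and 4.58% higher. The median ratio of the 21 was 0.07 and their summed level 25950 CPM in WT and 23700 CPM in NCD. Egr1, a zinc finger factor induced within minutes of stimulation, stood at 295.0 CPM in WT and 890.6 in NCD, a log2 ratio of -1.59 (-1.64 to -1.55). An Egr1 UMI was found in 23.1% of thinned WT and 35.6% of thinned NCD cells. Cd69, the early activation and tissue retention receptor, stood at 465.4 and 764.4 CPM (log2 ratio -0.72). Dusp1 and Atf3, other genes of the list, went the other way with ratios of 0.44 and 0.37, below 1.5-fold. Egr1 stood at 253.9 CPM in KO and 73.2 in HFD, and in B cells at 12.1 CPM in the Srebf2 pool and 52.8 CPM in the diet pool.

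Heat shock genes included 2 lower and none higher of 15 (all genes: 1.92% and 4.58%), with a median of -0.07. Hsph1, a chaperone of the HSP110 family, stood at 63.2 and 128.3 CPM (log2 ratio -1.02), and Hspa1a, inducible HSP70, at 159.2 and 285.5 CPM (log2 ratio -0.84). The constitutive Hspa8 stood at 2694 and 2828 CPM. The part of the capture in these early response and heat shock genes was not tested.

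Of 6 measured type 2 and myeloid-directed cytokine genes, 3 were lower and 1 higher in WT (all genes: 1.92% and 4.58%). Csf2, which encodes GM-CSF, stood at 18.6 CPM in WT and 37.7 in NCD (log2 ratio -1.02, -1.23 to -0.82). Csf1, the macrophage growth factor, stood at 99.6 and 151.4 CPM (log2 ratio -0.60). Ccl1 and Il13, at 5.92 against 10.7 CPM and 18.6 against 10.2 CPM, were each concentrated, with over 20% of the UMIs of the higher condition in 2 cells. A UMI of Il5, Il13 or Csf2 was found in 4.12% of thinned WT (3.45 to 4.87) and 4.99% of thinned NCD cells (4.38 to 5.65), and the intervals overlapped.

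Chemokine receptors split, with 2 higher and 3 lower of 14 in WT (all genes: 4.58% and 1.92%). Ccr8, a receptor of tissue Treg cells, stood at 68.9 and 38.4 CPM (log2 ratio 0.84), and Ccr6, which binds CCL20, at 6.0 and 2.70 CPM (log2 ratio 1.15). The lower genes included Ccr2 and Gpr183, an oxysterol receptor named after its value was seen, at 42.7 and 66.7 CPM (log2 ratio -0.64). Cxcr6 and Cxcr4 had ratios of -0.09 and 0.09. Among 12 type 1 genes 3 were lower, including Ly6c2 and Gzma, and Gzma was concentrated in 2 cells of each control. Ly6c2 stood at 15.5 and 32.4 CPM, and with more markers of other cell types required at 0 its ratio was 0.16.

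**Figure D4:**
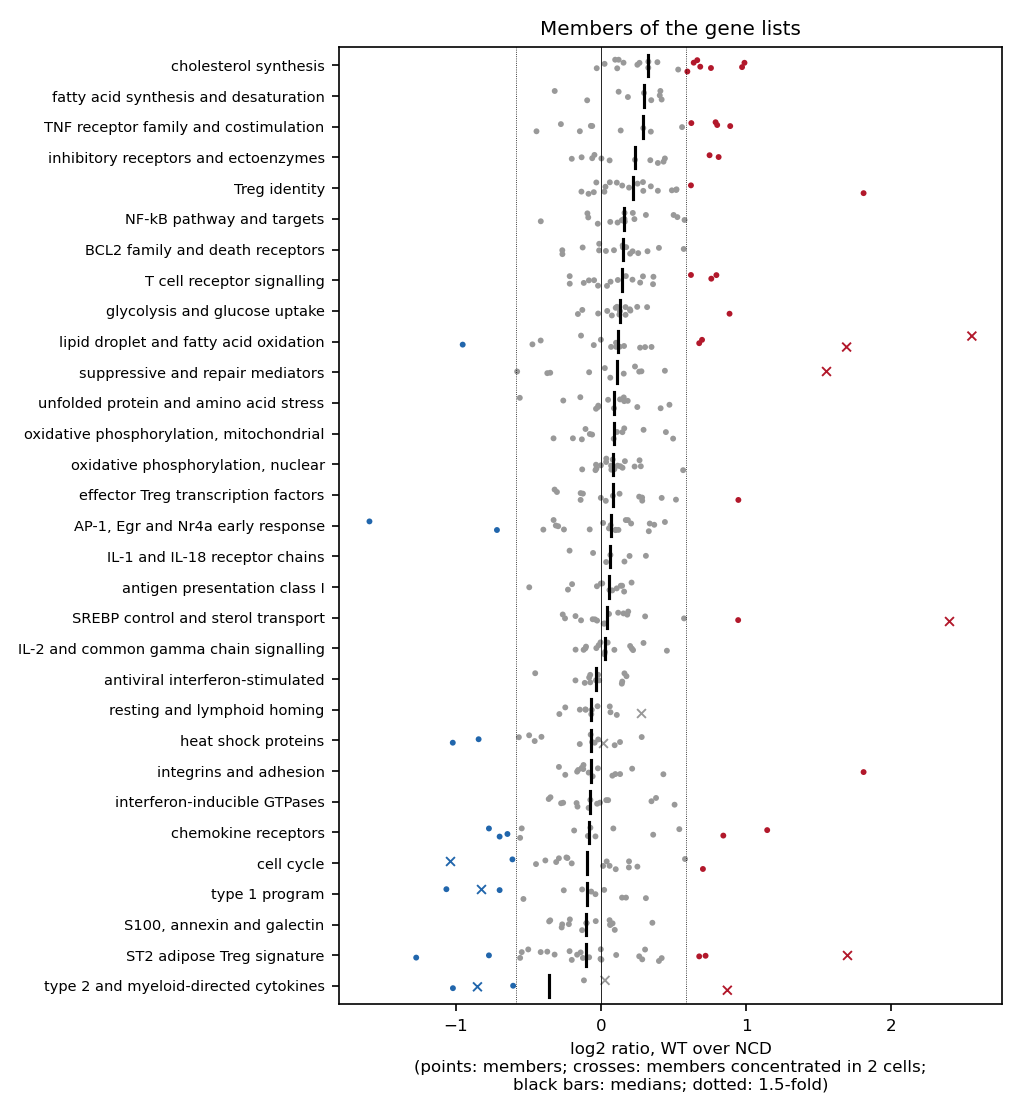
log2 ratio of WT over NCD (x axis) for the members at 5 CPM or more of each of 31 gene lists (y axis), sorted by median (black bars); red and blue points are past 1.5-fold (dotted lines) and crosses are members with over 20% of the UMIs of the higher condition in 2 cells. Cholesterol synthesis has the highest median, 0.33, and type 2 and myeloid-directed cytokines the lowest, -0.36.

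Metabolic lists gave isolated differences, beside 4.58% higher and 1.92% lower over all genes at 5 CPM. Among 18 lipid droplet and fatty acid oxidation genes 4 were higher and 1 lower, and 2 of the higher ones, Fabp4 and Cd36, had 58.9% and 66.5% of their WT UMIs in 2 cells. Acadl, a mitochondrial dehydrogenase of long-chain acyl-CoA, was the lower one, at 115.3 and 223.1 CPM (log2 ratio -0.95, -1.03 to -0.87). It stood at 115.0 CPM in KO and 232.9 CPM in HFD, so its levels followed the Srebf2 and diet pools. Eno1, enolase, was the single glycolytic gene of 16 past 1.5-fold, at 203.4 and 110.0 CPM (log2 ratio 0.89), with 221.0 CPM in KO and 153.1 in HFD. Of 20 nuclear and 13 mitochondrial genes of oxidative phosphorylation none was past 1.5-fold, and the 9 genes of fatty acid synthesis and desaturation had a median of 0.30 with none past it.

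Proliferation genes differed at 3 of 18, with 1 higher and 2 lower in WT (all genes: 4.58% and 1.92%). Mki67, a marker of cycling cells, stood at 25.1 and 38.2 CPM (log2 ratio -0.61), Ccnb1 was concentrated in few cells, and Rrm2, a ribonucleotide reductase subunit, stood at 21.3 and 13.1 CPM (log2 ratio 0.70). Of 84 measured ribosomal protein genes 75 had a ratio below 0, with a median of -0.20, and 10 were lower and none higher. Itgae was the single one of 16 integrin and adhesion genes past 1.5-fold, and Hbegf, concentrated in few cells, the single one of 12 suppressive and repair mediators. No member was past 1.5-fold among the 18 NF-kB, 16 interleukin-2 and common γ chain, 13 antiviral, 15 interferon-inducible GTPase, 15 unfolded protein, 16 BCL2 family, 16 S100 and annexin, 13 class I presentation, 12 resting and 7 interleukin-1 receptor genes.

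The genes farthest apart between the controls were mostly outside these lists. Fmn1 (chromosome 2, 113327664 to 113716768, overlapping another RefSeq gene), which encodes an actin-nucleating formin, stood at 1247 CPM in WT and 293.4 in NCD (log2 ratio 2.09, 2.05 to 2.13). It stood at 1318 CPM in KO and 145.4 in HFD. C2 (chromosome 17, 34862602 to 34882100), a complement component, stood at 295.9 and 101.2 CPM (log2 ratio 1.55), with 263.1 CPM in KO and 75.6 in HFD. Gm21887, a predicted gene, had the highest ratio, at 65.9 and 5.99 CPM (log2 ratio 3.45, 3.19 to 3.73), with 59.5 CPM in KO and 4.15 in HFD. In each of these the 2 conditions of the Srebf2 pool lay above both of the diet pool.

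Of the remaining genes of the 12 highest ratios, 6 gave a like ratio in the partner cells. The log2 ratios of Gm42031, Gm16286, Usp50, Txnl4a, Ehbp1 and Hypk lay between 1.54 and 2.51, and KO over HFD gave 1.30 to 2.20 for them. The other 3 did not. Catspere2, which belongs to a sperm calcium channel complex, stood at 84.4 CPM in WT against 19.3 in NCD, 21 in KO and 19.1 in HFD. NCD was the lowest of the 4 conditions for Mmd and Gm43305. Mmd stood at 72.9 and 24.2 CPM, with 77.6 CPM in KO and 58.7 in HFD, and the noncoding Gm43305 at 40.8 and 13.7 CPM, with 30.1 CPM in KO and 38.9 in HFD.

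Among the 12 lowest ratios F630206G17Rik, Gm15564, AC154200.1, Hist2h2aa1 and Gm9844 also followed the Srebf2 and diet pools. F630206G17Rik, a noncoding RNA, stood at 5.21 CPM in WT and 35.1 in NCD (log2 ratio -2.74), with 4.99 CPM in KO and 31.9 in HFD. Bace2, 1700061F12Rik, Egr1 and Wipf3 did not: each stood highest in NCD, with HFD the lowest of the 4 conditions. Bace2, a membrane protease, stood at 44.3 CPM in WT, 103.2 in NCD, 27.7 in KO and 7.61 in HFD. Macrod2 stood at 13.4 and 43.6 CPM, with 18.6 CPM in KO and 24.6 in HFD, and Ube2c, a cell cycle ubiquitin-conjugating enzyme, at 9.78 and 23.9 CPM, with 54.1 CPM in HFD.

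**Figure D5:**
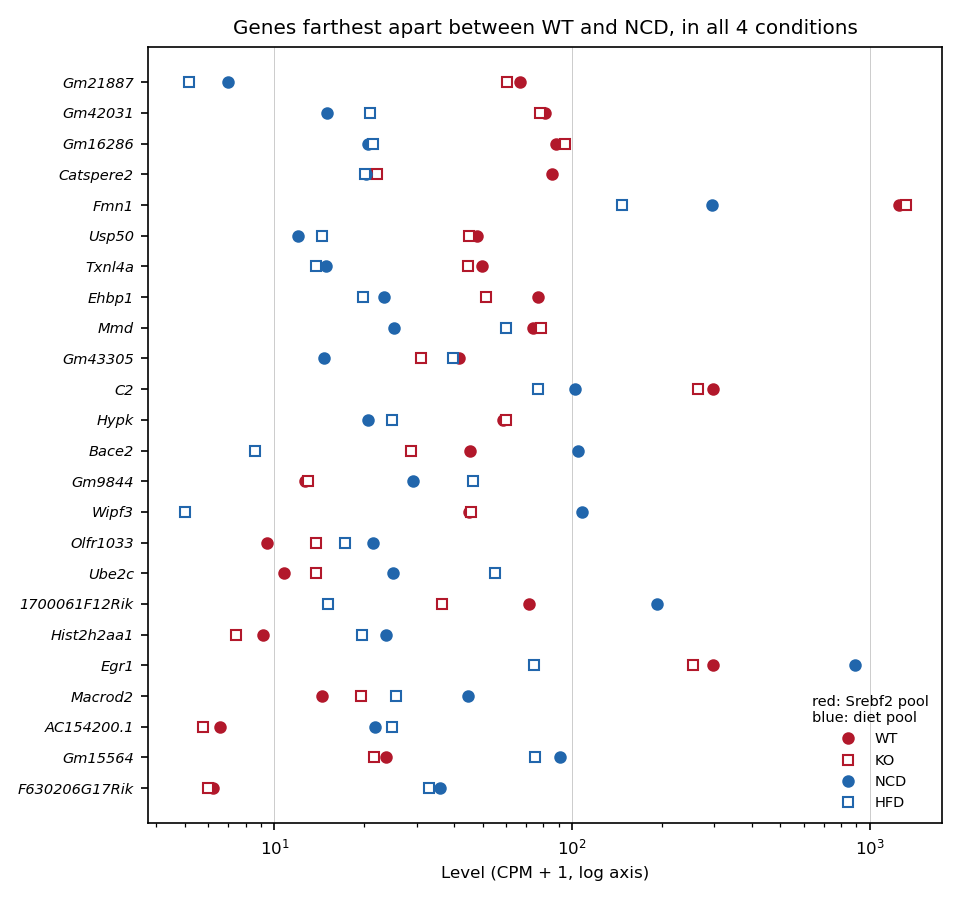
Level (x axis, CPM + 1, log axis) of the 12 genes with the highest and the 12 with the lowest ratio of WT over NCD in the 4 conditions, red for the Srebf2 pool (WT filled circle, KO open square) and blue for the diet pool (NCD filled circle, HFD open square), each symbol 1 pool of cells. For genes such as Fmn1, with 1247 and 1318 CPM against 293.4 and 145.4, both red symbols stand apart from both blue ones, whereas Egr1 and Bace2 are highest in NCD and lowest in HFD.

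How far the differences followed the Srebf2 and diet pools was counted in cells that were not used to choose them. Of the 176 genes higher in WT, 85 (48.3%) were also 1.5-fold or more higher in KO than in HFD, against 9.7% of all genes tested. Of the 84 lower genes, 39 (46.4%) were also lower in KO than in HFD, against 4.66%. For 57 of the higher and 20 of the lower genes, KO lay within 1.25-fold of WT and HFD within 1.25-fold of NCD. B cells of the captures (78 in the Srebf2 pool and 195 in the diet pool) gave a further comparison. They held 3 or more Cd79a UMIs and none of Cd3e or Foxp3. Of 91 higher genes with 20 or more UMIs in B cells, 48 (52.7%) were 1.5-fold or more higher in Srebf2-pool B cells, against 16.5% of all tested genes with such counts, and 3 were past it the other way. Of 56 lower genes, 31 (55.4%) were lower in B cells too, against 7.15%, and 3 were higher. Fmn1 stood at 944.0 CPM in B cells of the Srebf2 pool and 205.7 in those of the diet pool (log2 ratio 2.20), and C2 at 803.3 and 375.0 CPM. Strain, capture and software version each differ between the pools and cannot be told apart here.

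The called genes differed in kind from the tested ones. Among those matched to RefSeq, 84.7% of the higher and 69.2% of the lower genes were protein coding, against 98.0% of the genes tested. Genes that overlap another RefSeq gene made up 47.9% of the higher, 61.5% of the lower and 47.0% of the tested genes. The protein-coding ones had a median length of 20.5 kb when higher and 12.5 kb when lower, against 24.2 kb. Antigen receptor segments gave 13 higher and 13 lower genes, immunoglobulin genes 6 lower and ribosomal protein genes 9 lower. Of the called genes 7 higher and 8 lower ones were concentrated, with over 20% of the UMIs of the higher condition in 2 cells.

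The antigen receptor repertoires of the 2 controls used variable segments in different proportions. Of 66 T cell receptor segment genes at 5 CPM, 31 were higher and 21 lower in WT (all genes: 4.58% and 1.92%). Trbv31 took 1.87% of the Trbv UMIs in WT and 11.1% in NCD, whereas Trbv20 took 10.6% and 3.22% and Trbv17 5.6% and 0.738%. Trbv12-2 lay within 1.5-fold, at 10.8% and 14.5%. Among α chain segments Trav8n-2 took 1.69% of the Trav UMIs in WT and 10.5% in NCD, and Trav1 took 4.29% and 0.164%. In the control with the higher share of each of these 5 differing segments, 2 cells held between 1.71% and 5.74% of its UMIs. These are pooled UMIs of 4 and of 5 mice, and segment families share similar sequence, so reads may be split between near-identical members.

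Markers of some other cell types differed between the controls although Cd79a, Lyz2 and Cd8a were at 0 in every cell by choice. The summed level of 7 NK cell markers was 11.8 CPM in WT and 29.2 CPM in NCD, with 3 lower in WT. That of 5 mast cell markers was 2.21 and 7.61 CPM, with 3 of them at 0 in WT and 2 in NCD. Red blood cell markers summed to 464.0 and 88.3 CPM, with 4 of 5 higher in WT and nearly all of these UMIs in few cells. Immunoglobulin genes took 0.00991% of the UMIs in WT and 0.0855% in NCD. Plasma cell markers summed to 101.1 CPM in WT and 149.6 CPM in NCD, with 1 lower in WT. Endothelial markers summed to 44.75 and 25.86 CPM, with 1 higher. B cell markers summed to 245.2 and 240.5 CPM, with 1 lower. Adipocyte and stromal markers summed to 10.2 and 9.23 CPM. Macrophage and monocyte markers summed to 235.5 and 239.8 CPM, with 1 higher and 1 lower. The part of these cells or of their free RNA in the differences above was not tested.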

How the data were processed

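Raw UMI counts per gene and droplet, with hashtag counts as further rows, were deposited by the authors. Cell Ranger made both matrices, in version 7.1.0 (WT) and 7.0.1 (NCD) per the file headers; the submitters' processing notes give only 7.0.1, with mm10. Cells were chosen by the stated limits. Droplets in which neither hashtag reached 90% (745 and 682) were dropped, no doublet caller was run, and doublets within a condition remain.

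Counts were summed over the cells of a condition and divided by the summed total (CPM). Ratios had 0.5 counts added to each sum. Intervals at 95% were exact Poisson for levels, exact binomial for the split of counts and for shares of cells (Clopper-Pearson). Thinning drew 2000 UMIs per cell without replacement. The ratio code was tested on simulated data. Python 3.11.15, numpy 2.4.6, scipy 1.17.1, pandas 2.3.3 and matplotlib 3.10.9 were used.

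Named genes were the 12 highest and 12 lowest ratios at 20 CPM (leaving out antigen receptor, immunoglobulin, mitochondrial and ribosomal protein genes and those with over 20% of UMIs in 2 cells), the 15 most abundant, per list the 4 farthest members and 3 most abundant, the 12 highest and 8 lowest in the Il1rl1 contrast, and 9 fixed genes; the text gives most of them, and some members of the lists are not reported here. Members, lists and rules were chosen with earlier results of these data known. Gene positions are RefSeq's for GRCm38.p6.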

Additional observations from a re-analysis of the deposited data

Results flagged for a closer look

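Hashtag 1, the WT hashtag, had 4 counts in the diet matrix, where it was not used. Hashtag 3, the NCD hashtag, had 0 counts in the Srebf2 matrix, and a count of 0 allows up to 3 counts. That bound is for Hashtag 3 in the Srebf2 matrix and sets no limit for Hashtag 1 in the diet matrix. The origin of the 4 counts was not tested.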

How the results depend on the processing

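No paired analysis was possible because each condition is 1 pool and no test was run, and leaving out a replicate could not be done. The counts of genes higher and lower in WT (176 and 84) were 358 and 240 at a hashtag share of 99%, which left 244 WT and 2263 NCD cells, with 4 cholesterol synthesis genes higher. There, the ratios of Fdps and Tnfsf8 turned to -0.0911 and -0.00196. Without the filter on Cd79a, Lyz2 and Cd8a 182 genes were lower, so that 51.1% of calls were higher against 67.7%. Median-ratio scaling, under which the median log2 ratio is 0.0 in place of 0.06, gave 147 higher and 116 lower, 55.9% higher. At a minimum of 5 CPM the counts were 448 and 188, and at 50 CPM 86 and 47. With more markers of other cells at 0, the ratios of Gzma and Ly6c2 turned to 0.63 and 0.16. In cells with a Foxp3 UMI the ratio of Gzma was 0.32. The share of WT and NCD cells with an Il1rl1 UMI was 57.5% and 64.4% without the filter on other cells, 61.7% and 71.3% in cells with a Foxp3 UMI, 42.4% and 47.8% at 1000 UMIs, 70.7% and 78.9% at 3000, and 71.0% and 78.1% unthinned. NCD stood above WT in each of these. Genes higher and lower with Il1rl1 in both controls numbered 60 and 61 at 1000 UMIs, and 211 and 212 unthinned. Of 3276 ratios of named genes recomputed, 2583 stayed within counting error, 688 moved beyond it and 5 changed sign, those of Fdps, Tnfsf8, Ly6c2 and, under 2 settings, Gzma. The cause of these changes was not tested. Depth limits genes near 5 CPM, where a CPM stands for few molecules.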
